A study of Mus musculus with 46 samples.

Results

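Ribosome-bound RNA of hypothalamic POMC neurons was compared between fasted and fed mice in 4 libraries, 2 fed and 2 fasted, out of 46 samples in the series. The libraries were taken by their labelled cell type, assay and feeding condition, and no measured value was used to choose them. The mice were NuTRAP animals crossed with POMC-IRES-Cre (NuTRAPPomc), a cross in which Cre expressed from the Pomc locus switches on a GFP-tagged L10a ribosomal protein, and the tagged ribosomes were recovered with an antibody to GFP (translating ribosome affinity purification, TRAP). By the protocol, each library held the pooled arcuate nuclei of 4 mice aged 6 to 11 weeks, all male by the labels, so the libraries are pools and not single animals, and the spread between them may be technical as well as biological. That protocol text names NuTRAPAgRP mice for all TRAP libraries, and the POMC libraries are identified by their cell type label. Fed mice had food ad libitum and fasted mice had none overnight, and both received PBS as the vehicle. A further 2 POMC libraries from fasted mice given leptin entered the model to help estimate the spread, and 11 AgRP neuron libraries (3 fed, 4 fasted, 4 leptin) served for the contrast with the other cell type. Pomc-driven Cre is known to mark also some arcuate cells that transcribe Pomc only during development.

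POMC neurons of the arcuate nucleus make the prohormone proopiomelanocortin, which is cleaved to melanocortin peptides that restrain feeding through melanocortin receptors on downstream neurons. They carry the leptin receptor, which signals through the transcription factor STAT3 and induces its own inhibitor, Socs3. Fasting lowers circulating leptin and insulin and raises circulating glucocorticoids, and the neighbouring AgRP neurons, which promote feeding, are known to be activated by it.

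The defining markers were present under the cell type label. Pomc lay at 1128 to 2067 CPM (a gene's counts relative to the TMM-scaled library total) in the 6 POMC libraries and at 17.4 to 44.1 CPM in the 11 AgRP libraries, and Prdm12, a transcription factor required for Pomc expression, lay at 35.5 to 110 CPM against 1.68 to 3.76 CPM. Agrp, at 5.88 to 27.4 CPM in the POMC libraries, lay far below its range of 313 to 2136 CPM in the AgRP libraries. The 4 libraries held 30704075 to 53217053 counts. The replicate number was the main axis of variation: a first principal component with 65.6% of the variance separated the numbers in all 3 states, and the most counted gene, the glial glutamate transporter Slc1a2, took 0.581% and 0.641% of the counts in fed and fasted replicate 1 but 2.14% and 2.42% in replicate 2. Fed and fasted libraries were therefore compared within replicate number, and differences are given below also for each pair. In TRAP of pooled tissue, fewer tagged cells and less RNA per cell cannot be told apart.

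The first question was which genes differ in ribosome-bound RNA between fasted and fed POMC neurons. Asb4, Cd44 and Nptx2 fell, by 1.88, 0.85 and 0.74 on the log2 scale, and no gene rose. A gene was called where its false discovery rate (FDR, the Benjamini-Hochberg adjusted p of edgeR's quasi-likelihood test over all 13412 genes tested) was under 0.05 and its log2 fold change passed 0.5 in size. The calls were thus 3 lower (0.0224% of genes tested) and 0 higher (0% of genes tested). At an unadjusted p under 0.05 there were 991 lower genes (7.39%) and 986 higher genes (7.35%). At an FDR under 0.10 with the same fold limit, a threshold chosen after seeing the data, 47 genes were lower and 20 were higher, and the lowest FDR among genes with higher levels was 0.062. The standard error of the log2 fold change had a median of 0.105, and for 94.8% of the genes the 95% interval lay within 1 log2 unit of no change. The number of calls depended on the model and the scaling: the model with no replicate block called 0 and 0 genes (147 lower and 135 higher at an unadjusted p under 0.05), DESeq2 with the block called 53 lower and 29 higher, edgeR's older quasi-likelihood 21 and 6, scaling by library size alone 48 and 13, and the 4 libraries fitted alone with the block 66 and 35. Without fed replicate 1 the counts were 12 lower and 0 higher, without fed replicate 2 they were 236 and 173, without fasted replicate 1 they were 15 and 15, and without fasted replicate 2 they were 252 and 163. Asb4, Cd44 and Nptx2 were among the called genes in each of these fits other than the fits with no replicate block. Features derived from ribosomal RNA had higher values in both fasted libraries and were not called. Rn45s, the ribosomal RNA precursor, had 286 and 368 CPM in the fed and 671 and 2971 CPM in the fasted libraries (log2 fold change 2.43, FDR 0.207). It varied between libraries of fasted mice, and in leptin replicate 1 it was the most counted gene, with 1.04% of the counts. Mir6236 (3.01) and Lars2 (1.90), features known to take up ribosomal RNA reads, also had higher values in both fasted libraries. All 3 features were among the 35 genes called higher, of 13403 tested, when the 4 libraries were fitted alone with the block. They were named after their values were seen, so that call is no independent support. The part of residual ribosomal RNA or RNA quality in the other values was not tested.

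**Figure D1:**
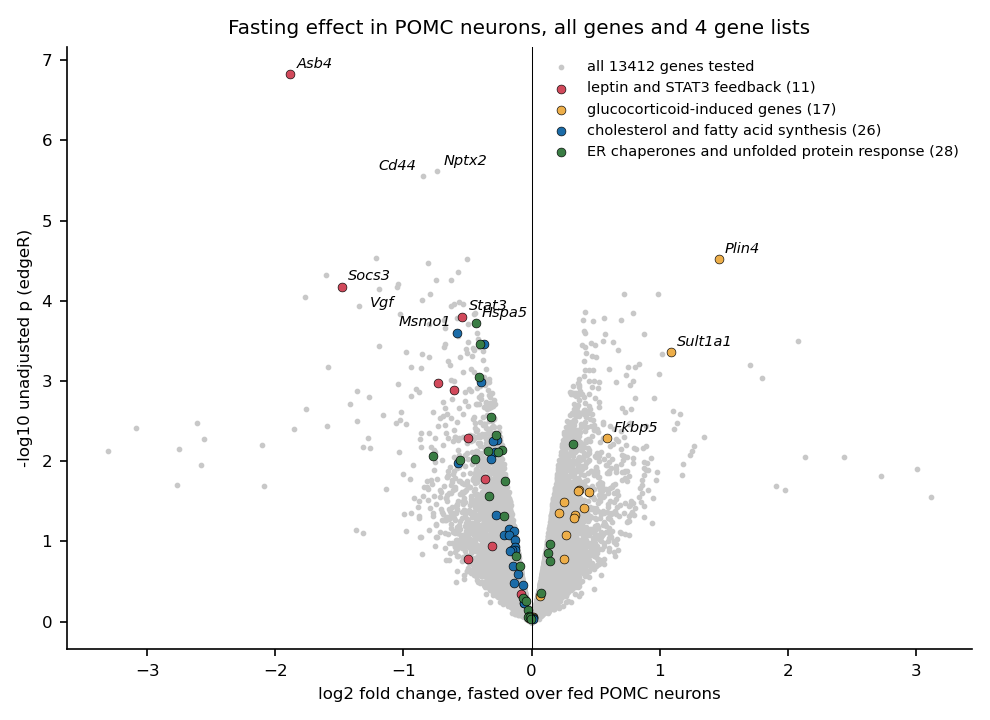
Fasting effect in POMC neurons: log2 fold change of fasted over fed (horizontal axis) against minus log10 of edgeR's unadjusted p (vertical axis) for 13412 genes (grey points), with the members of 4 gene lists in colour and selected genes named. Asb4 stands alone at the top left with a log2 fold change of -1.88, and the members of the glucocorticoid-induced list lie mostly to the right of 0 while those of the leptin and STAT3 list lie to the left.

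Asb4, an ankyrin repeat protein with a SOCS box that serves as a substrate adaptor of ubiquitin ligases, had 682 and 312 CPM in the fed libraries and 147 and 107 CPM in the fasted libraries (replicates 1 and 2). Both fasted libraries lay below both fed libraries, as they did for 12.8% of all genes tested. The log2 fold change was -1.88 (standard error 0.13, FDR 0.00202), that is 3.68-fold less RNA in the fasted state, and it was -2.21 in replicate 1 and -1.54 in replicate 2. The 2 leptin libraries, from fasted mice, had 181 and 106 CPM. The gene lies at chr6:5383386-5433022 on the plus strand (GRCm38). The 250 bases before its first RefSeq start, upstream of the annotated gene, are shown because this gene had the smallest p, and they hold no palindromic STAT motif of the kind described below.

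Asb4 (chr6:5383136-5383385, plus strand): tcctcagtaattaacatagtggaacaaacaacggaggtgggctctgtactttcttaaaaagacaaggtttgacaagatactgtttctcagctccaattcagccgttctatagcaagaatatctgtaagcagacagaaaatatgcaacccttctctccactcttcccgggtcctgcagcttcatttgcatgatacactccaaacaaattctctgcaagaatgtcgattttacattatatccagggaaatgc

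Cd44, the receptor for the matrix polysaccharide hyaluronan (chr2:102811141-102901665, minus strand), had 64.2 and 63.8 CPM in the fed libraries and 33.3 and 38 CPM in the fasted libraries. The 2 fed values were nearly equal, and the decrease was -0.85 (standard error 0.08, FDR 0.0126). Nptx2, a secreted neuronal pentraxin that gathers glutamate receptors at synapses (chr5:144545902-144557478, plus strand), had 141 and 89.8 CPM in the fed and 84.3 and 54.3 CPM in the fasted libraries. Fasted replicate 1 lay just below fed replicate 2, so the gap between the groups was narrow, but the differences within the pairs were alike at -0.74 and -0.72. Its log2 fold change was -0.74 (standard error 0.07, FDR 0.0126).

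**Figure D2:**
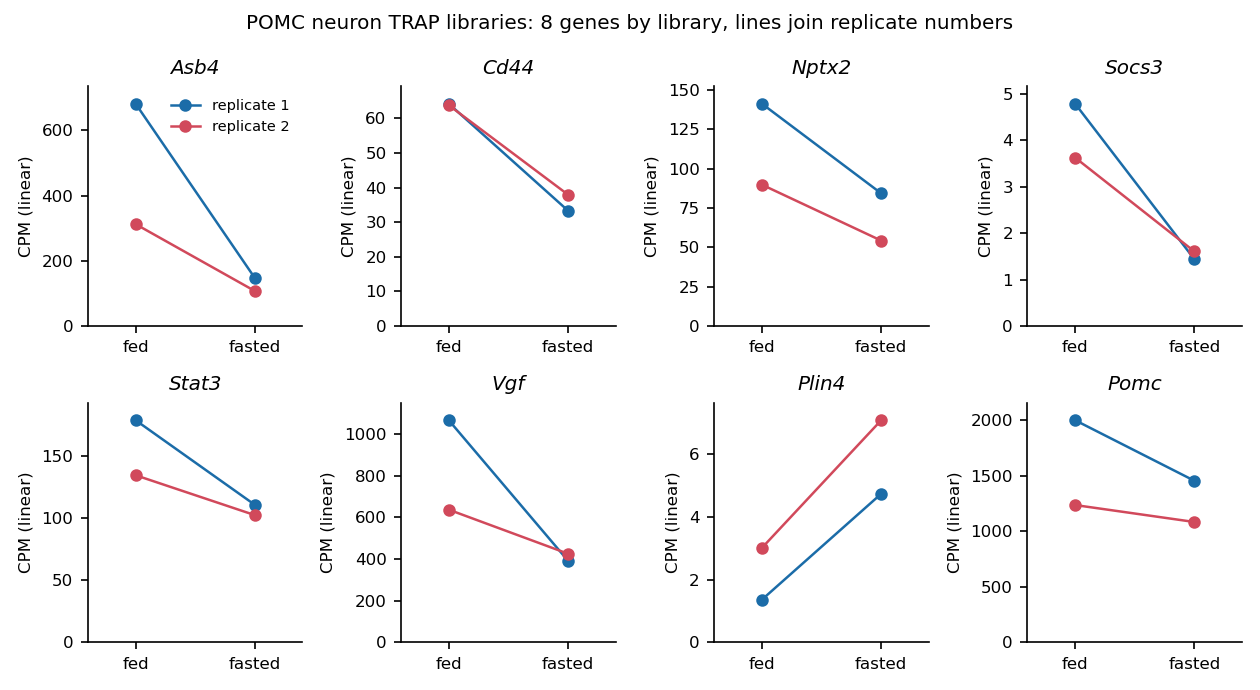
Levels of 8 genes in the 4 POMC libraries, in CPM on linear axes that start at 0, with lines that join fed and fasted libraries of the same replicate number. For Asb4, Cd44, Nptx2, Socs3, Stat3 and Vgf both fasted points lie below both fed points, for Plin4 both lie above, and for Pomc fasted replicate 1 (1456 CPM) lies above fed replicate 2 (1237 CPM).

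Next in order of p within each direction, among the genes whose groups did not overlap, came 9 genes with lower and 12 with higher fasted levels that were not called, with FDR between 0.062 and 0.0756. Among the lower were the extracellular matrix genes Fbn2 (fibrillin 2, log2 fold change -1.21) and Fn1 (fibronectin, -0.81), the stress-responsive transcription factor Atf3 (-1.60), the imprinted zinc finger gene Plagl1 (-0.57), the cation channel Trpc7 (-0.75), the intermediate filament gene Vim (-1.04), Socs3 (-1.48), the ER mannosyltransferase Tmtc4 (-1.05) and the glycolipid synthase A4galt (-1.19). Fn1, for example, had 96 and 55.8 CPM in the fed and 47.2 and 37.1 CPM in the fasted libraries. Tmtc4 had 103 and 60.7 CPM against 37.8 and 38.8 CPM, and Atf3 had 4.58 and 2.33 CPM against 1.52 and 0.733 CPM. In CPM the fed values of these genes were further apart than the fasted values, with replicate 1 the higher fed library in all 9. Taken as a ratio of the replicates, this did not hold for Fbn2 and Atf3. Vim is also on the list of tanycyte and ependymal markers, whose 7 tested members had a median log2 fold change of -0.00 and summed without Vim to 90.5 and 134 CPM in the fed and 110 and 113 CPM in the fasted libraries, overlapping between the states. Genes known from meninges and fibroblasts, named after their values were seen, were lower alongside the matrix genes. Fmod, the collagen-binding fibromodulin, had 14.6 and 16.9 CPM in the fed and 2.26 and 3.52 CPM in the fasted libraries (-2.56, FDR 0.178), and Igf2, a growth factor of meninges and choroid plexus, had 53.2 and 113 CPM against 19 and 46.3 CPM (-1.36, FDR 0.167). Slc13a4 (-3.31), Slc22a6 (-3.08), Col3a1 (-1.85), Ogn (-1.76), Aebp1 (-1.13) and Ptgds (-0.86) also had both fasted libraries below both fed libraries. None of these 8 was called. All were among the 66 genes called lower, of 13403 tested, when the 4 libraries were fitted alone with the block. As the 8 were named after their values were seen, that call is no independent support. Col1a1 (-0.88), Col1a2 (-0.30) and Dcn (-0.28), collagen and matrix genes looked at with them, were called in neither fit. Dcn had 3.59 and 5.7 CPM in the fed and 5.16 and 2.65 CPM in the fasted libraries, and Col1a1 also overlapped between the groups. The part of these meninges and fibroblast genes, and that of the amount of meninges in each dissection, in the values of Fn1, Fbn2, Vim and Cd44 was not tested.

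Of the 12 genes with higher fasted levels, Plin4, a coat protein of lipid droplets, had the smallest p. It had 1.37 and 3.02 CPM in the fed and 4.74 and 7.08 CPM in the fasted libraries, a log2 fold change of 1.46 (standard error 0.19, FDR 0.062). Pla2g4e, a phospholipase A2 family enzyme, had 5.48 and 7.45 CPM in the fed and 12.5 and 13.1 CPM in the fasted libraries (0.99). Crebrf, a regulator of CREB3 factors, had 161 and 206 CPM against 221 and 268 CPM (0.42), and Inpp5k, an inositol phosphatase, had 29.7 and 27.7 CPM against 53.6 and 36.8 CPM (0.63). The transporters Slco1a4 (0.72) and Slc44a5 (0.70), the matrix gene Fbln5 (0.79), the volume-regulated channel subunit Lrrc8a (0.40), the proteoglycan Sdc4 (0.48) and the mitochondrial kinase Tk2 (0.41) completed the set together with the low-count genes Ghrl, the ghrelin precursor (0.88), and Htr3b, a serotonin receptor subunit (2.08). Htr3b had 0.609 and 0.69 CPM in the fed and 4.17 and 1.47 CPM in the fasted libraries, so its value rested mainly on fasted replicate 1. Slco1a4 is also an endothelial marker, and the other 9 vascular and fibroblast markers tested summed to 155 and 172 CPM in the fed and 150 and 163 CPM in the fasted libraries, overlapping between the groups. The part of those cells in the Slco1a4 values was not tested.

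The second question was how the leptin pathway of these neurons stood in the fasted state. All 11 tested members of the leptin and STAT3 feedback list had lower levels in the fasted library of both replicate pairs, against 30.9% of all genes tested. Like the other lists, it was written with earlier results of these data known, so such shares only describe its members. Asb4, the gene with the smallest p, is one of them. The median log2 fold change was -0.50, against -0.00 over all genes, and the median within the pairs was -0.53 in replicate 1 and -0.41 in replicate 2. Asb4 was the only member called, and 7 of the 11 were lower at an unadjusted p under 0.05, against 7.39% of all genes. The leptin libraries of Asb4, at 181 and 106 CPM, lay near its fasted libraries (147 and 107 CPM) and below its fed libraries. Socs3, the inhibitor that STAT3 induces, had 4.79 and 3.63 CPM in the fed and 1.44 and 1.61 CPM in the fasted libraries, a log2 fold change of -1.48 (standard error 0.22, FDR 0.062). Both leptin libraries, at 12.4 and 9.02 CPM, lay above the fed libraries. Stat3 itself had 179 and 135 CPM in the fed and 111 and 102 CPM in the fasted libraries (-0.54, standard error 0.09, FDR 0.0638), and its leptin libraries, at 180 and 135 CPM, lay at the fed values.

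Other cytokine feedback genes had lower levels in the fasted library of both pairs and were not called. Socs2 had 18.9 and 16.1 CPM against 9.22 and 11.9 CPM (-0.73, FDR 0.115). Cish, another SOCS family inhibitor, had 11.5 and 9.36 CPM against 6.88 and 6.8 CPM (-0.61, FDR 0.123). Sbno2, a corepressor induced by STAT3, had 13.4 and 11.6 CPM against 9.14 and 8.58 CPM (-0.50, FDR 0.178), and Irf9, an interferon-regulated transcription factor, had 16.3 and 12.1 CPM against 12.1 and 9.88 CPM (-0.37, FDR 0.245). The receptor gene Lepr had 43.4 and 29 CPM in the fed and 33.8 and 21.4 CPM in the fasted libraries, so the groups overlapped, with a lower fasted level in each pair (-0.35 and -0.43) and a log2 fold change of -0.39 (standard error 0.09, FDR 0.133). Both leptin libraries lay above both fasted libraries for Socs2, Cish, Sbno2 and Irf9, while those of Lepr had 29.3 and 21 CPM.

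The palindromic STAT motif TTCNNNGAA, searched on both strands in the 250 bases before RefSeq starts (GRCm38.p6), was found for 2 of the 10 list members with a promoter in the RefSeq table, Socs3 and Sbno2, and for 8.13% of all genes in that table. All 3 sites lie inside a longer GENCODE model of their gene, in introns except for the second, which overlaps the edge of an untranslated exon. The sites are shown because these genes had lower fasted levels in both pairs, with the motif in capitals and the gene's strand read 5′ to 3′.

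Socs3 (chr11:117969512-117969520, minus strand): aaccagccTTCTTAGAAgggagggg

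Sbno2, upper start (chr10:80102720-80102728, minus strand): cgcgccccTTCGCAGAAgcggaagt

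Sbno2, lower start (chr10:80101203-80101211, minus strand): ggctctgcTTCCCGGAAtgcctgtg

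A match is a string of letters and not a measured binding site, and a window without one says nothing about STAT3.

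**Figure D3:**
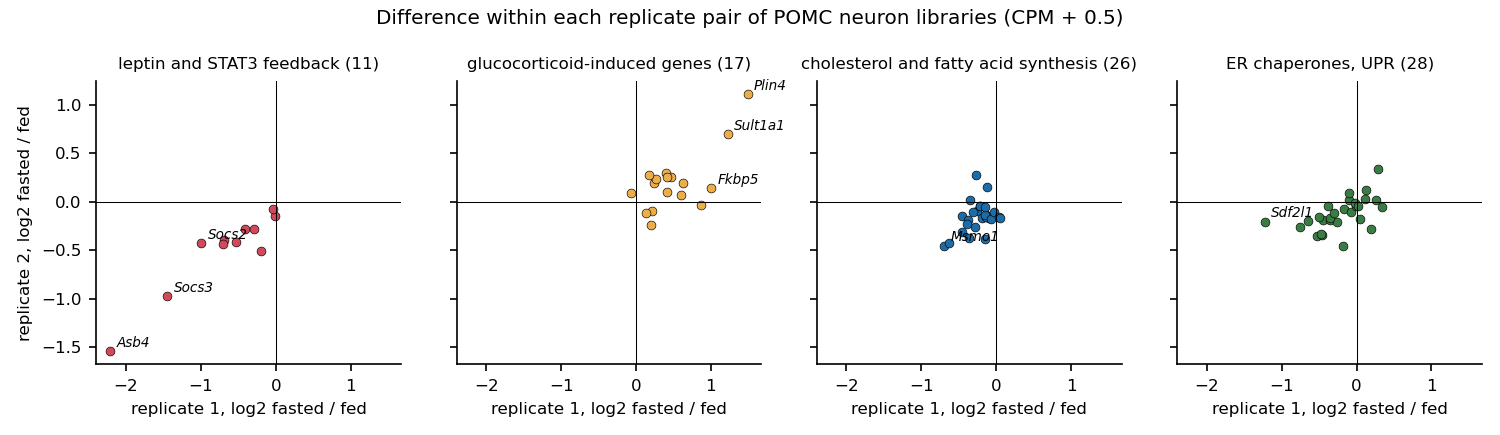
Log2 ratio of fasted over fed CPM (with 0.5 CPM added) in replicate 1 (horizontal axis) and replicate 2 (vertical axis) for the members of 4 lists, 1 point per gene. All 11 leptin and STAT3 members fall at the lower left, with Asb4 at -2.21 and -1.54, and 12 of the 17 glucocorticoid-induced genes fall at the upper right.

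The third group was the glucocorticoid-induced genes, a set known to respond to corticosterone in many tissues, which shares Pdk4 and Ddit4 with the fuel use and amino acid stress lists and Per1 with the clock list. Of 17 tested, 12 had higher levels in the fasted library of both pairs and none had lower levels in both, against 31% and 30.9% of all genes. The median log2 fold change was 0.33 (0.41 in replicate 1 and 0.20 in replicate 2), 10 members were higher at an unadjusted p under 0.05 (against 7.35% of all genes), and none was called. Plin4 (above) and Sult1a1, a sulfotransferase, had the largest values. Sult1a1 had 2.12 and 2.88 CPM in the fed and 5.64 and 4.99 CPM in the fasted libraries (1.09, standard error 0.20, FDR 0.0786). Fkbp5, a cochaperone that restrains the glucocorticoid receptor, had 74 and 80.7 CPM against 149 and 89.4 CPM (0.59, FDR 0.178). Its level was 1.00 log2 unit higher in fasted replicate 1 and 0.15 higher in fasted replicate 2, so the size of its difference rested on replicate 1, and without fed replicate 1 the median of the list was 0.14. Nfkbia, the inhibitor of NF-kappaB, had 9.43 and 9.34 CPM against 13.2 and 11.2 CPM (0.37). Cdkn1a, a cell cycle inhibitor (0.36), and the kinase gene Sgk1 (0.22) overlapped between the groups.

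The palindromic glucocorticoid response element, taken as GNACA and TGTNC with any 3 bases between them and searched in the same way, was found for 2 of 16 list members with a promoter, Mt1 and Sgk1, and for 0.44% of all genes in the table. The Sgk1 site lies in an intron of longer models, before an internal start, and the Mt1 site lies upstream of the gene. They are shown with the motif in capitals.

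Sgk1 (chr10:21993702-21993714, plus strand): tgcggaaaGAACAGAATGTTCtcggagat

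Mt1 (chr8:94178995-94179007, plus strand): cactatagGGACATGATGTTCcacacgtc

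The metallothionein gene Mt1 had 10.7 and 19.6 CPM in the fed and 14.4 and 23.5 CPM in the fasted libraries, higher in each pair with overlapping groups (0.33, FDR 0.342).

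Insulin and FoxO signaling genes, which carry the insulin signal and the response to its absence, were higher in both pairs for 16 of 20 tested members and lower in both for the other 4. Over all genes tested the shares were 31% and 30.9%. The median difference was small, at 0.13, and none was called. Bcl6, a repressor known as a FoxO target, had 13.6 and 19.3 CPM in the fed and 22.5 and 25.6 CPM in the fasted libraries (0.55, FDR 0.169). Txnip, the glucose-sensitive arrestin, had 16.3 and 28.3 CPM against 40.8 and 31.5 CPM (0.72, FDR 0.204), with 1.30 log2 units in replicate 1 and 0.15 in replicate 2. The receptors Insr (99.2 and 109 CPM against 124 and 120 CPM, 0.23) and Igf1r (0.23, with differences of 0.24 and 0.23 in the pairs) and the adaptor Irs1 (0.24) had slightly higher fasted levels. Irs4, the insulin receptor substrate known to be abundant in hypothalamus, went the other way with 1260 and 822 CPM against 977 and 710 CPM (-0.29, FDR 0.178).

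Cholesterol and fatty acid synthesis genes had lower fasted levels in both pairs for 21 of 26 tested members and higher levels in both for 0 of them. Over all genes tested the shares were 30.9% and 31%. The median log2 fold change was -0.16, 9 members were lower at an unadjusted p under 0.05 (against 7.39% of all genes), and none was called. The sterol demethylation enzymes Msmo1 (82.9 and 65.4 CPM in the fed, 51 and 47.7 CPM in the fasted libraries, -0.58, FDR 0.0687) and Cyp51 (83.5 and 66.3 CPM against 60.4 and 53.3 CPM, -0.39, FDR 0.113) did not overlap between groups. Hmgcs1, which makes the substrate of the rate-limiting enzyme of cholesterol synthesis, had 245 and 237 CPM in the fed and 190 and 183 CPM in the fasted libraries (-0.37, standard error 0.07, FDR 0.0756), with replicates closer together than the states. Sqle, the squalene epoxidase (-0.27), and Srebf2, the transcription factor that drives this pathway (319 and 314 CPM against 232 and 285 CPM, -0.30), also had both fasted libraries below both fed libraries.

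The sterol regulatory element TCACNCCAC was found for 1 of 17 list members with a promoter, Hmgcs1, and for 1.22% of all genes in the table. The 250 bases before the RefSeq start of Hmgcs1 are shown, with the element in capitals 137 bases before the start (counted to its first base).

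Hmgcs1 (chr13:119690101-119690350, plus strand): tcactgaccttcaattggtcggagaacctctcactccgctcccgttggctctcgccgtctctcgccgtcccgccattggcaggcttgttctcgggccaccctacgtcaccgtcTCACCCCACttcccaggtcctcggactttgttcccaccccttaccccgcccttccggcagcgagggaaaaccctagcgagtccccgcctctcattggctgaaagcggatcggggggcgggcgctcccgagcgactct

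The melanocortin genes themselves were not called. Pomc had 2001 and 1237 CPM in the fed and 1456 and 1085 CPM in the fasted libraries, which overlapped between the groups. It was lower by 0.46 and 0.19 log2 units in the pairs and its log2 fold change was -0.33 (standard error 0.11, FDR 0.237). Cartpt, the precursor of the CART peptides, had 754 and 450 CPM against 497 and 351 CPM, also overlapping (-0.47, standard error 0.10, FDR 0.125). Some transcription factors of the lineage had values above 0. Prdm12 had 75 and 52.7 CPM against 107 and 60.3 CPM (0.35, FDR 0.285), Six6 had a log2 fold change of 0.33 and Nhlh2 of 0.33. Of the 9 identity genes 6 had values above 0 and 3 below. Beside Pomc and Cartpt, a further transcription factor of the list was below 0 and lower in both pairs. Over the 9 identity genes the median was 0.14, and it was -0.05 without fed replicate 1. The melanocortin receptor gene Mc4r had 3.05 and 3.12 CPM against 1.97 and 3.56 CPM, and its log2 fold change of -0.19 had an interval of -0.71 to 0.34.

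The prohormone convertase gene Pcsk1, which cuts proopiomelanocortin, had 174 and 145 CPM in the fed and 199 and 135 CPM in the fasted libraries, a difference of 0.05 with an interval of -0.15 to 0.26. Among the 13 tested genes of prohormone processing and the granins, 8 were lower and 1 was higher in both pairs (against 30.9% and 31% of all genes), with a median of -0.10. Vgf, the precursor of secreted VGF peptides, stood apart with 1065 and 636 CPM in the fed and 392 and 425 CPM in the fasted libraries (-1.02, standard error 0.16, FDR 0.0638). Its pairs differed by 1.44 log2 units in replicate 1 and 0.58 in replicate 2, both lower in the fasted library. Chga, chromogranin A, had 105 and 99.3 CPM against 79.2 and 78.3 CPM (-0.37, FDR 0.11), Chgb had a log2 fold change of -0.20, and the amidating enzyme Pam and secretogranin Scg2 had -0.16 and -0.14. Cpe, the carboxypeptidase that trims the cut peptides, had 891 and 901 CPM against 874 and 881 CPM, a difference of -0.03 with an interval of -0.19 to 0.13.

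Of 22 tested receptors for feeding signals, 8 (36.4%) were lower and 6 (27.3%) were higher in both pairs, near the 30.9% and 31% of all genes. Npy1r, the receptor for neuropeptide Y, had 311 and 165 CPM in the fed and 220 and 117 CPM in the fasted libraries, so the groups overlapped, but the difference was -0.50 in each pair and its log2 fold change was -0.50 (standard error 0.07, FDR 0.062). The cannabinoid receptor Cnr1 had 171 and 218 CPM against 229 and 270 CPM (0.36, FDR 0.113), and the nociceptin receptor Oprl1 had 202 and 184 CPM against 276 and 213 CPM (0.33, FDR 0.139), both without overlap between the groups. The median over the receptors was -0.06.

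Endoplasmic reticulum chaperones and genes of the unfolded protein response, which fold secreted proteins, were lower in both pairs for 18 of 28 tested members and higher in both for 4. Over all genes tested, 30.9% were lower and 31% were higher in both pairs. The median of the list was -0.16, 14 members were lower and 1 was higher at an unadjusted p under 0.05 (against 7.39% and 7.35% of all genes), and none was called. Hspa5, the main chaperone of the compartment, had 621 and 457 CPM in the fed and 432 and 359 CPM in the fasted libraries (-0.44, standard error 0.07, FDR 0.0638). Calr, calreticulin, had 214 and 179 CPM against 155 and 142 CPM (-0.40, FDR 0.0756), and Manf, a secreted chaperone cofactor, had 58.6 and 43.7 CPM against 42.1 and 34.6 CPM (-0.41, FDR 0.11). The chaperone Hsp90b1 and the transcription factor Xbp1 had values of -0.32 and -0.27, and Edem1, which takes misfolded glycoproteins to degradation, had 0.32. Of 69 respiratory chain genes, 51 were lower and 1 was higher in both pairs, with a median of -0.13. Their differences were small, the lowest p belonging to Uqcrq (-0.37), Cox5a (-0.30) and Cox7c (-0.39). Cytosolic ribosomal protein genes, measured with the tagged ribosome, were lower in both pairs for 29 and higher for 12 of 77, with a median of -0.05.

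Of 20 immediate early genes tested, which follow neuronal activity, 9 were lower and 2 were higher in both pairs, against 30.9% and 31% of all genes. At an unadjusted p under 0.05, 6 were lower and 0 were higher, against 7.39% and 7.35% of all genes. The median was -0.04 (-0.17 in replicate 1 and -0.18 in replicate 2), and none was called. Fos had 9.89 and 9.09 CPM in the fed and 16.3 and 8.34 CPM in the fasted libraries (0.35, FDR 0.418), higher in replicate 1 and lower in replicate 2, and without fasted replicate 1 its value was -0.0856. Fosb had 9.96 and 15.5 CPM against 4.29 and 9.56 CPM (-0.94, FDR 0.0973), Fosl2 had a value of -0.52 and Nr4a2 of -0.57. Among genes of fuel use, Pdk2, a kinase that restrains pyruvate oxidation (0.35, FDR 0.125), and the lipase inhibitor Angptl4 (0.74, FDR 0.23) had higher fasted levels in both pairs, while the median of the 20 tested members of that list was -0.03. Among 17 clock genes, 6 (35.3%) were higher and 6 were lower in both pairs, near the 31% and 30.9% of all genes. Per3 had 30.4 and 39.5 CPM in the fed and 56.8 and 54.3 CPM in the fasted libraries (0.67, standard error 0.12, FDR 0.0785), and Nr1d2 had 112 and 139 CPM against 166 and 160 CPM (0.38, FDR 0.17).

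Among the remaining lists, Slc7a11, the cystine transporter, had the smallest p of 19 amino acid stress genes (68 and 154 CPM in the fed, 38.1 and 118 CPM in the fasted libraries, -0.60, FDR 0.0687), and the list's median was -0.07. Gad1, a GABA-synthesizing enzyme, had 512 and 444 CPM against 315 and 407 CPM (-0.42, FDR 0.183), in a list of 11 transmitter genes with a median of -0.07. Of 13 interferon pathway genes 7 were lower and 3 higher in both pairs (against 30.9% and 31% of all genes), with a median of -0.12. Irf3 had 5.78 and 4.67 CPM against 3.33 and 3.14 CPM (-0.69, FDR 0.159). The 6 NMDA receptor subunits had a median of 0.03.

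Markers of other cells were followed in the same libraries. Agrp had 5.69 and 9.36 CPM in the fed and 26.7 and 10.5 CPM in the fasted libraries, and Npy had 10.1 and 18.1 CPM against 50.5 and 19.1 CPM. Both had log2 fold changes of 1.18 (FDR 0.217 and 0.237) that rested on replicate 1, where the pairs differed by 2.13 and 2.27 log2 units against 0.16 and 0.08 in replicate 2. The 7 tested AgRP markers had a median of 0.34, and the list summed to 110 and 149 CPM in the fed and 198 and 148 CPM in the fasted libraries. The part of AgRP neuron RNA in the other values of fasted replicate 1 was not tested. The 14 tested peptide genes of other hypothalamic neurons had a median of -0.29, with -0.47 in replicate 1 and -0.07 in replicate 2, and Adcyap1 had the smallest p (-0.48, FDR 0.178). Hcrt, named after its values were seen, had 46.5 and 30 CPM in the fed and 5.84 and 42 CPM in the fasted libraries. Astrocyte markers summed to 6557 and 23957 CPM in the fed and 7026 and 27424 CPM in the fasted libraries, following the replicate number. These sums were mostly Slc1a2, with 5444 and 22499 CPM against 6042 and 25934 CPM. The replicates were closer for Slc1a3 (412 and 555 CPM against 416 and 605 CPM) and Gfap (46.5 and 44.4 CPM against 31.6 and 46 CPM). Aqp4 had the lowest log2 fold change among the astrocyte markers (-0.71, FDR 0.164). Oligodendrocyte markers summed to 543 and 840 CPM against 496 and 1042 CPM, microglia markers to 42.7 and 52.7 CPM against 25.9 and 56.9 CPM, pituitary markers to 17.9 and 27.8 CPM against 17.1 and 25.3 CPM, and red blood cell genes to 1.97 and 4.12 CPM against 1.92 and 3.73 CPM, each overlapping between the states. The 8 tested microglia markers all had log2 fold changes below 0, with a median of -0.28 (-0.65 in replicate 1 and 0.00 in replicate 2). Of these, 4 were lower and 0 were higher in both pairs, against 30.9% and 31% of all genes. None of these marker lists had a called member.

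The last question was where the fasting effect in POMC neurons differs from that in AgRP neurons, which were profiled in the same way and share no library with them. In the AgRP libraries 549 genes were called higher (4.09% of 13435 tested) and 373 lower (2.78%). The difference between the fasting effects, AgRP minus POMC, had an FDR under 0.05 for 919 genes above 0 (6.84%) and 457 below 0 (3.40%). With no replicate block it passed for 22 genes in all in place of 1376, and it passed for 474 without POMC fed replicate 1, 530 without fasted replicate 1, 675 without fasted replicate 2 and 973 without fed replicate 2. Cell type and mouse line changed together, and only effects within each cell type enter this contrast.

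**Figure D4:**
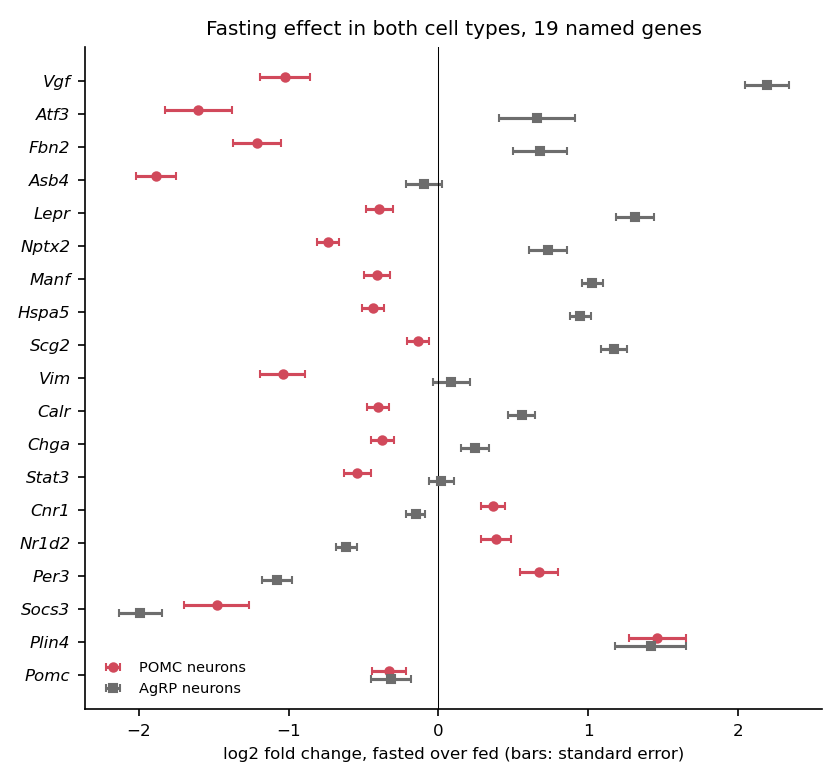
Log2 fold change of fasted over fed for 19 named genes in POMC neurons (red circles, from the model of the POMC libraries) and AgRP neurons (grey squares, from the joint model), with bars for the standard error. Vgf lies at -1.02 and 2.19, Lepr at -0.39 and 1.31 and Per3 at 0.67 and -1.08, while Plin4, Socs3 and Pomc lie on the same side in both cell types.

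Vgf had the widest gap of the genes named here, with a log2 fold change of -1.02 in POMC and 2.19 in AgRP neurons (difference 3.21, standard error 0.23, FDR 7.69e-06). Lepr stood at -0.39 in POMC and 1.31 in AgRP neurons (difference 1.71, FDR 0.000265). Nptx2 fell in POMC neurons and rose in AgRP neurons by 0.73 (FDR 0.000814), a difference of 1.47 (FDR 0.000585). Asb4 fell in POMC neurons, and its value in AgRP neurons was -0.10 (standard error 0.12, FDR 0.604), a difference of 1.79 (standard error 0.20, FDR 0.000157). Stat3, at -0.54 in POMC neurons, was at 0.02 in AgRP neurons (difference 0.56, FDR 0.017). The matrix and cytoskeletal genes Fbn2 (1.89), Vim (1.13) and Fn1 (0.94) had differences in the same direction.

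The secretory lists had medians on opposite sides of 0. Over all genes tested, 6.84% had a difference above 0 with an FDR under 0.05 and 3.40% had one below. Of the 28 endoplasmic reticulum genes 18 had a difference above 0 with an FDR under 0.05 and 0 had one below. Their median was -0.16 in POMC and 0.48 in AgRP neurons, where 13 were called higher, against 4.09% of all genes. Hspa5 stood at -0.44 and 0.95 (difference 1.39, FDR 9.71e-06) and Manf at -0.41 and 1.03 (difference 1.44, FDR 9.71e-06). Of the 13 prohormone processing and granin genes 7 had a difference above 0 with an FDR under 0.05, and the medians were -0.10 and 0.39. Pcsk1 stood at 0.05 and 0.76 (difference 0.71, FDR 0.00169) and Scg2 at -0.14 and 1.17 (difference 1.31, FDR 6.99e-05). Of the 20 immediate early genes 7 had a difference above 0 with an FDR under 0.05, among them Atf3 (2.27), Fosb (1.68) and Fos (0.94). The medians of that list were -0.04 in POMC and 0.57 in AgRP neurons.

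The leptin and STAT3, glucocorticoid-induced and cholesterol lists had medians on the same side of 0 in both cell types. The difference for Socs3 was -0.50 (standard error 0.29, FDR 0.297), with -1.48 in POMC and -1.99 in AgRP neurons, and Cish and Sbno2 had differences of -0.27 and -0.11. Medians of the leptin and STAT3 list were -0.50 in POMC and -0.41 in AgRP neurons, those of the glucocorticoid-induced list were 0.33 and 0.60, and those of the cholesterol list were -0.16 and -0.28. Plin4 stood at 1.46 and 1.42 (difference -0.04, interval -0.82 to 0.74), Hmgcs1 at -0.37 in both and Pomc at -0.33 and -0.32. Within these lists a difference passed for 7 genes. By list these were 2 of 11, 3 of 17 and 2 of 26 tested members. Over all genes, 6.84% passed above 0 and 3.40% below 0. The 7 were Asb4 and Stat3 (above), Errfi1, at 0.01 and 0.98 (difference 0.97, FDR 0.0012), Stard4, at -0.17 and -0.60 (difference -0.43, FDR 0.0307), Cdkn1a, at 0.36 and 2.58 (difference 2.22, FDR 2.95e-05), Sgk1, at 0.22 and 0.97 (difference 0.76, FDR 0.0132), and Cyp51, at -0.39 and 0.23 (difference 0.63, FDR 0.00165). Of 17 clock genes, 6 had a difference below 0 and 2 above with an FDR under 0.05, against 3.40% and 6.84% of all genes. Among them were Per3, at 0.67 and -1.08 (difference -1.75, FDR 2.88e-05), and Nr1d2, at 0.38 and -0.61 (difference -0.997, FDR 0.000174). The clock medians lay on opposite sides of 0, at 0.03 in POMC and -0.14 in AgRP neurons. So did those of the respiratory chain (-0.13 and 0.06), fuel use (-0.03 and 0.05) and POMC identity lists (0.14 and -0.08).

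**Figure D5:**
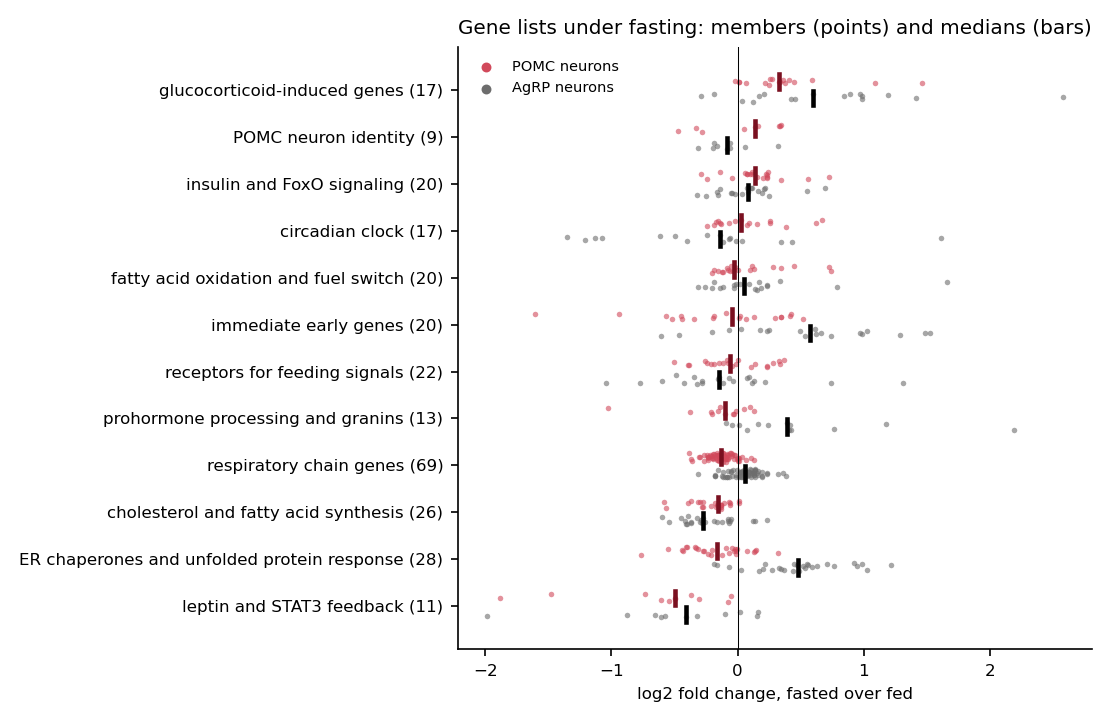
Log2 fold change of fasted over fed for the members of 12 gene lists (points, with small vertical scatter for visibility) and their medians (bars) in POMC neurons (red) and AgRP neurons (grey and black), with the number of genes tested in POMC neurons in brackets. The medians lie on opposite sides of 0 for the endoplasmic reticulum list (-0.16 and 0.48) and on the same side for the leptin and STAT3 list (-0.50 and -0.41).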

How the data were processed

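RNA bound to tagged ribosomes was sequenced after removal of ribosomal RNA. The deposited values are raw counts per gene, which the authors obtained with featureCounts (Subread) from HISAT2 alignments to mm10, the GRCm38 assembly, using gene models altered to reduce overlap between transcripts; versions and the strand setting are not given in the sources used here. The POMC, AgRP and leptin libraries were taken from that table by their labels, and no per-sample column was left unmatched. The gene table held 31854 genes. Genes with a mean over 1 CPM were tested with edgeR 4.0.16 in R 4.3.3 (quasi-likelihood, TMM scaling), with state and replicate number as terms in the 6 POMC libraries. The study's own model had the state alone. The replicate number was kept as a block because deviations of same-numbered libraries correlated at 0.733 to 0.770 in POMC and 0.536 to 0.814 in AgRP neurons. The difference between cell types was a contrast in 1 model of 17 libraries. DESeq2 1.42.0 served as an alternative, and the tests were checked on simulated data. CPM values are scaled by TMM, and the fold change per pair was taken after adding 0.5 CPM; the ranges of markers over both cell types come from the joint scaling.

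The genes named were up to 12 per direction (called genes, then those with the smallest p, with no overlap between groups), every called list member and 11 fixed genes. Other list members were named by smallest p after their values were seen. The comparison and the 26 gene lists were chosen with earlier results of these data known. Promoter sequences are from RefSeq (GRCm38.p6) and gene positions from GENCODE. Alternatives changed the block, libraries, tool, scaling, filter and thresholds. Chromatin files of other samples and the CPM tables the authors derived from the same libraries were not used here. Some items are not reported here.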

Additional observations from a re-analysis of the deposited data

Results flagged for a closer look

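The fasting effect differed between AgRP and POMC neurons for 41 of a set of 89 named genes. The limit was an FDR under 0.05 in edgeR's quasi-likelihood test of the difference itself. Over all genes tested, 6.84% passed above 0 and 3.40% below 0. Many of the 89 were named by small p in the same POMC libraries that enter the difference. The number that passed among them is therefore no independent result. Values are the AgRP minus the POMC log2 fold change, so that a value above 0 means a higher fasted level relative to fed in AgRP than in POMC neurons. Among leptin and insulin pathway and receptor genes these were Asb4 (1.79), Lepr (1.71), Stat3 (0.56) and Npy1r (0.44) above 0, with Cnr1 (-0.51), Oprl1 (-0.44) and Irs1 (-0.56) below 0. Among secretory genes they were Vgf (3.21), Manf (1.44), Hspa5 (1.39), Scg2 (1.31), Calr (0.96), Hsp90b1 (0.79), Pcsk1 (0.71), Xbp1 (0.64), Chga (0.62), Pam (0.58) and Cpe (0.44). Among transcription factors induced by activity they were Atf3 (2.27), Fosb (1.68), Fos (0.94) and Fosl2 (0.77), and the synaptic pentraxin had Nptx2 (1.47). Matrix, cytoskeletal and glycosylation genes were Fbn2 (1.89), Vim (1.13), A4galt (1.03), Tmtc4 (1.03) and Fn1 (0.94). Genes of stress, sterol and respiratory metabolism were Cdkn1a (2.22), Sgk1 (0.76), Cox7c (0.71), Cyp51 (0.63), Uqcrq (0.57) and Cox5a (0.46). Of the clock genes named, those below 0 were Ciart (-1.83), Per3 (-1.75) and Nr1d2 (-0.997), while Nfil3 (1.79) and Arntl (0.58) of the same list, not among the 41, lay above 0. Other genes below 0 were Crebrf (-0.86), Inpp5k (-0.79), Slc44a5 (-0.56) and Pdk2 (-0.49). With no replicate block the difference passed for 4 of the 41, and with DESeq2 it passed for 38. It passed for 28 without POMC fed replicate 1, 33 without fed replicate 2, 25 without fasted replicate 1 and 31 without fasted replicate 2.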

How the results depend on the processing

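Counts of called genes are given as higher and lower in the fasted state, against 0 and 3 as reported. Same-numbered POMC libraries deviated together, and the model with no replicate block called 0 and 0 genes, as did the 4 libraries alone with no replicate block. The 4 libraries alone with the block called 35 and 66, DESeq2 29 and 53, library size alone 13 and 48, edgeR's expression filter 3 and 23, the older robust quasi-likelihood 6 and 21, and an FDR under 0.10, added after seeing the data, 20 and 47. Leaving out each library in turn gave 0 to 173 higher and 12 to 252 lower. RLE scaling, no filter and no fold threshold each gave 0 and 3. Asb4, Cd44 and Nptx2 were each called in 12 of 14 alternatives, all but those with no replicate block, and kept their direction in every alternative. The difference between cell types passed for 1376 genes, for 22 with no replicate block, for 1533 with DESeq2, and for 474 to 973 with each POMC library left out, an alternative added after seeing the data. Some values near 0 changed sign when a library was left out: over the 4 libraries left out in turn, Fos ranged from -0.0856 to 0.679, Pcsk1 from -0.113 to 0.206, Mc4r from -0.536 to 0.103 and Cpe from -0.0662 to 0.00188. No scaling moved the median of all genes by more than 0.02 log2 units in size. List medians changed sign in some alternative for POMC identity (-0.05 to 0.33), clock (-0.01 to 0.06), fuel use (-0.06 to 0.06), immediate early (-0.24 to 0.00) and receptor genes (-0.09 to 0.08). The other 7 lists compared kept their sign. The model had 2 libraries a state and 2 residual degrees of freedom. An exact two-sided permutation test of a single gene that ignores the pairs cannot go below 0.333, and swaps within pairs allow fewer arrangements still.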
